A study of Mus musculus with 16 samples.

Results

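The comparison described here is ischaemia-reperfusion injury (IRI) against sham operation in the kidney cortex of Degs1 knockout mice. It took 8 of the 16 RNA-seq libraries of the study, 4 of knockout mice after IRI and 4 of knockout mice after sham, chosen by their genotype and treatment labels. The knockout (Degs1iGKO, written iGKO below) was a tamoxifen-inducible global one on a C57Bl/6J background, in which CreERT2 from the Rosa26 locus recombines floxed Degs1 alleles in cells throughout the body, so that no single kidney cell type was targeted. The other 8 libraries came from Degs1fl/fl littermates, 4 after each operation, and are used here only as a reference. Mice of both genotypes were male and were injected intraperitoneally with 3 mg of tamoxifen on 5 days from 9 weeks of age. At 12 weeks they were allotted at random to IRI, in which the pedicles of both kidneys were clamped for 28 min, or to sham surgery without the clamp. The labels give 28 min as the default and reperfusion as up to 24 h, without a time for each sample. Libraries of cortex RNA were stranded and depleted of ribosomal RNA, and all carry the same batch label. Whether each library is 1 animal is not stated, so the p-values measure the spread between these samples, which may be technical.

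DEGS1 is the desaturase that completes the main de novo route to ceramide by placing a double bond in dihydroceramide, and ceramides are lipids known to affect mitochondria. Clamping the renal vessels stops oxygen delivery to the cortex, where proximal tubule cells depend on mitochondrial respiration. Injured tubules are known to reduce their transporters, to switch on injury genes such as Havcr1 and Lcn2, and to draw in neutrophils and monocytes.

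Degs1 itself was checked first. Its level, in CPM (read counts scaled to library depth and TMM-normalised), was 65.3, 50.7, 71.7 and 40.2 CPM in iGKO sham 1 to 4 and 58.4, 54.8, 44.7 and 59.8 CPM in iGKO IRI 1 to 4. The fl/fl libraries stood at 84.0 to 113 CPM after sham and 88.8 to 133 CPM after IRI. No iGKO library reached the fl/fl range of its operation (difference of means -43.3 CPM after sham and -58.1 CPM after IRI, exact two-sided permutation p 0.0286 for each, n = 4 a group, the smallest p these group sizes allow). A gene-level count also takes reads from exons outside a deleted part, and which exons are deleted is not given in the sources used here. Between the operations Degs1 did not pass the test in iGKO, with a log2 fold change of -0.07 ± 0.18 (SE) and an adjusted p of 0.993 (edgeR).

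Library totals in iGKO ran from 12704273 to 18816343 counts. Several iGKO libraries stood apart. In iGKO sham 4, 0.443% of counts were from mitochondrially encoded genes, against 6.07 to 6.45% in iGKO sham 1 to 3, and the fit was therefore made with and without this library. Sham 2 had the highest Havcr1 of all 8, 126 CPM. Collagens were highest in iGKO IRI 2, with Col1a1 at 3598 CPM. RNA of brown fat and urothelium stood out in iGKO IRI 3, with Ucp1 at 284, Plin1 at 176 and Krt5 at 19.6 CPM. The summed CPM of 20 markers of adrenal gland, fat, muscle and urothelium was 1100.2 there and 18.1 to 126 in the other 7 iGKO libraries. In the fl/fl libraries it ran from 20.6 in sham 2 to 713 in sham 3, so a high sum was not confined to iGKO IRI 3. The summed level of 32 proximal tubule markers was 33302 CPM or more in each of the 8. No limit had been set for this sum, so it cannot check the cortex label.

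No gene passed the test for IRI against sham in iGKO (edgeR quasi-likelihood, Benjamini-Hochberg adjusted p under 0.05), either with all 8 libraries or without iGKO sham 4. The background is thus 0% in both directions. Of 17972 genes tested, 693 were higher (3.86%) and 452 lower (2.52%) after IRI at an unadjusted p under 0.05. Without iGKO sham 4 these numbers were 1256 (6.85%) and 944 (5.15%) of 18339 tested. The sets overlapped in part: 506 genes were higher in both, 73.0% of the first list and 40.3% of the second, and 294 were lower in both, 65.0% and 31.1%. With 1 library left out, 18285 to 18428 genes were tested at the same unadjusted threshold. Without iGKO sham 1, 2 and 3 in turn, 665, 529 and 517 genes were higher and 410, 367 and 309 lower. Without iGKO IRI 1 to 4 in turn, the counts were 773, 458, 577 and 839 higher and 515, 377, 261 and 411 lower. For fl/fl sham 1 to 4 they were 675, 696, 668 and 657 higher and 389, 425, 409 and 389 lower. For fl/fl IRI 1 to 4 they were 792, 698, 741 and 872 higher and 575, 441, 514 and 644 lower. List counts with 1 library left out, below, stand beside these. The groups did not overlap at all for 402 higher (2.24%) and 496 lower (2.76%) genes, and for 1304 (7.11%) and 1904 (10.4%) without iGKO sham 4. Groups of 4 and 3 separate by chance more readily than groups of 4 and 4. Shares without overlap, here and below, are thus not like for like with and without that library. Other tools made calls on the same counts. DESeq2 called 38 genes higher (0.211%) and 5 lower (0.0278%), and limma voom with sample quality weights called 274 (1.52%) and 276 (1.54%). Without iGKO sham 4, DESeq2 called 85 (0.463%) and 59 (0.322%) and limma voom 474 (2.58%) and 493 (2.69%). Of the 43 DESeq2 calls with 8 libraries, 42 were also limma voom calls and 39 had no overlap between the groups.

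In fl/fl the same operation passed the edgeR test for 1520 genes higher (8.46%) and 1259 lower (7.01%), with 2868 (16%) and 2658 (14.8%) at an unadjusted p under 0.05, and the groups did not overlap for 1735 (9.65%) and 1764 (9.82%). A call in one genotype and not in the other does not show a difference, so the genotype by operation interaction was tested. No gene passed it in either direction with all 16 libraries (863 positive, 4.8%, and 1170 negative, 6.51%, at an unadjusted p under 0.05), nor without iGKO sham 4 (1060, 5.78%, and 1438, 7.84%). DESeq2 called 31 positive (0.172%) and 81 negative (0.451%) interactions and limma voom 544 (3.03%) and 619 (3.44%). One fl/fl library decided the edgeR count: without fl/fl IRI 1, 381 genes passed with a positive and 395 with a negative interaction. That library had the lowest Havcr1 of its group, 101 CPM against 710.3 to 1666. Plaur, Nfkbiz, Clu and Myc were among the genes of smallest interaction p, and none of them passed (adjusted p 0.244). Clu, the gene of the extracellular chaperone clusterin, stood at 252, 329.5, 253 and 328 CPM in iGKO sham and at 423, 361, 243 and 392 CPM in iGKO IRI, so that the groups overlapped, and at 171 to 254 CPM after sham and 609.9 to 2197 CPM after IRI in fl/fl. On the log2 scale the change of Clu was 0.29 in iGKO and 2.64 (adjusted p 0.000556) in fl/fl. The common biological coefficient of variation was 0.275 in iGKO IRI and 0.295 in iGKO sham, 0.141 in the latter without sham 4, against 0.380 in fl/fl IRI.

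Since no gene passed, the genes described next were chosen by their p after the values were seen, and their separation and small p are descriptions: the 10 higher and 10 lower genes of smallest p with no overlap between the groups. Abcc3, which encodes an efflux pump for organic anions and conjugates, came first with 6.08, 6.37, 4.92 and 6.54 CPM after sham and 14.8, 19.0, 25.0 and 11.1 CPM after IRI. Every IRI library lay above every sham library, 2.92-fold in the fit. The log2 fold change was 1.55 ± 0.25 (SE) with an adjusted p of 0.205 (edgeR), and 1.61 ± 0.28 with 0.213 without iGKO sham 4. In fl/fl it rose by 1.19 (adjusted p 0.00626) on the log2 scale. Capg, an actin-capping protein of macrophages and other motile cells, stood at 18.8, 16.2, 13.6 and 18.5 CPM and 40.5, 56.6, 31.3 and 33.6 CPM. All 4 IRI libraries were again higher, with 1.27 ± 0.22 (SE; 1.34 ± 0.25 without iGKO sham 4) on the log2 scale, adjusted p 0.217 by edgeR. The matrix glycoprotein tenascin C, encoded by Tnc, was at 18.2, 25.8, 11.0 and 13.7 CPM after sham and 40.5, 109.5, 57.7 and 85.2 CPM after IRI. Its groups did not overlap, and the log2 fold change was 2.09 ± 0.42 (SE; 2.01 ± 0.48 without iGKO sham 4) (edgeR adjusted p 0.217). Fos, an immediate early subunit of the AP-1 transcription factor, was at 1.73, 2.35, 1.23 and 1.55 CPM and at 9.35, 11.8, 4.74 and 4.19 CPM. The log2 fold change of Fos was 2.13 ± 0.42 (SE; 2.10 ± 0.48 without iGKO sham 4) in iGKO and 2.53 (adjusted p 0.00179) in fl/fl (edgeR). Without iGKO sham 4 the adjusted p of these 3 genes was 0.214, 0.239 and 0.239.

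The other higher genes of this set were Igdcc4, Cd300lf, Stab1, Btk, Lgals3 and Csf2rb. Lgals3, the galectin-3 gene that injured tubules and macrophages both use, stood at 36.3, 50.2, 27.7 and 27.4 CPM after sham and at 72.2, 118, 76.5 and 121 CPM after IRI. Stab1, a scavenger receptor of macrophages and sinusoidal endothelium, stood at 64.2, 68.5, 58.1 and 87.0 CPM and at 107, 209, 152 and 124 CPM. The IRI libraries were higher without exception for both, by 1.46 ± 0.30 (SE; 1.36 ± 0.33 without iGKO sham 4) and 1.09 ± 0.21 (SE; 1.23 ± 0.22 without iGKO sham 4) on the log2 scale (edgeR adjusted p 0.217 for each). Btk, a tyrosine kinase of myeloid and B cells, was at 1.88, 1.36, 1.90 and 1.82 CPM and at 4.97, 5.43, 3.98 and 3.65 CPM. Btk levels in fl/fl were 1.36 to 2.38 CPM after sham and 1.52 to 3.08 CPM after IRI, and its log2 fold change there was 0.35 (adjusted p 0.429). The test of the difference between genotypes gave an interaction of 1.02 for Btk, adjusted p 0.364 (edgeR). Igdcc4, a membrane protein of the immunoglobulin superfamily, was at 0.3, 0.186, 0.447 and 0.472 CPM and at 1.86, 8.51, 4.74 and 1.22 CPM. Its IRI level was lowest in IRI 4 and highest in IRI 2. Its sham values rest on few reads, and the 0.186 CPM of sham 2 is what 3 reads give there. Csf2rb, the shared receptor chain for several myeloid growth factors, stood at 6.08, 3.65, 5.20 and 4.18 CPM and at 15.6, 27.5, 14.7 and 6.49 CPM, but it has a close copy, Csf2rb2, with which reads can be exchanged. DESeq2 called these 10 genes higher, with adjusted p from 3.25e-05 to 0.00265. Other genes on its list were Syk, the kinase that signals from immune receptors, with 9.69, 7.92, 9.50 and 9.84 CPM and 26.2, 37.3, 18.8 and 13.2 CPM, and Adam8, a myeloid metalloprotease, with 8.33, 6.19, 3.74 and 3.50 CPM and 25.3, 60.4, 14.7 and 12.2 CPM. The summed monocyte and macrophage markers stood, beside these genes, at 857, 505, 637 and 352 CPM in sham 1 to 4 and 2094, 1903, 723 and 522 CPM in IRI 1 to 4. The marker that weighed most in this sum was Fn1, which encodes the matrix protein fibronectin. Its mean over the 8 iGKO libraries was 477 CPM, and that of the next, Lyz2, was 168 CPM. The sum is thus not one of macrophage RNA alone. The part of these cells was not tested, and in bulk cortex more cells of a type and more RNA per cell cannot be told apart.

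Among the lower genes, Hsd17b11, a lipid-droplet hydroxysteroid dehydrogenase, stood at 153, 135, 232 and 163 CPM after sham and at 98.6, 105, 65.6 and 82.5 CPM after IRI. The groups were apart, with a log2 fold change of -0.96 ± 0.19 (SE), edgeR adjusted p 0.217, and -0.97 ± 0.21 without iGKO sham 4. Nr1h4 encodes FXR, the bile acid receptor, and was at 132, 147, 142 and 109 CPM and at 93.7, 88.4, 67.0 and 75.0 CPM. Nr1h4 had a log2 fold change of -0.71 ± 0.15 (SE) (adjusted p 0.285), and -0.78 ± 0.15 (adjusted p 0.214) without iGKO sham 4 (edgeR). Nr1d1, the clock repressor REV-ERB alpha, stood at 89.5, 92.6, 80.5 and 113 CPM and at 50.0, 61.9, 57.8 and 47.8 CPM, lower in each IRI library. A log2 fold change of -0.79 ± 0.17 (SE; -0.67 ± 0.17 without iGKO sham 4) in iGKO stood beside -0.77 (adjusted p 0.00868) in fl/fl. Gabarapl1, which encodes an autophagosome protein, was at 309, 314, 377 and 370.2 CPM and at 229.7, 225, 217 and 212 CPM. That is 0.645 times the sham level, with an edgeR adjusted p of 0.481. Hmgn5, a nucleosome-binding protein, was at 21.8, 18.0, 17.0 and 21.0 CPM and at 13.4, 9.13, 12.4 and 9.93 CPM, again without overlap. The remaining 5 were Lrrn1, Tmprss9, Zfp648, Kif21a and Anapc13, with edgeR log2 fold changes from -1.64 (Tmprss9) to -0.46 (Anapc13). DESeq2 called Hsd17b11, Nr1h4, Nr1d1 and Hmgn5 lower.

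**Figure D1:**
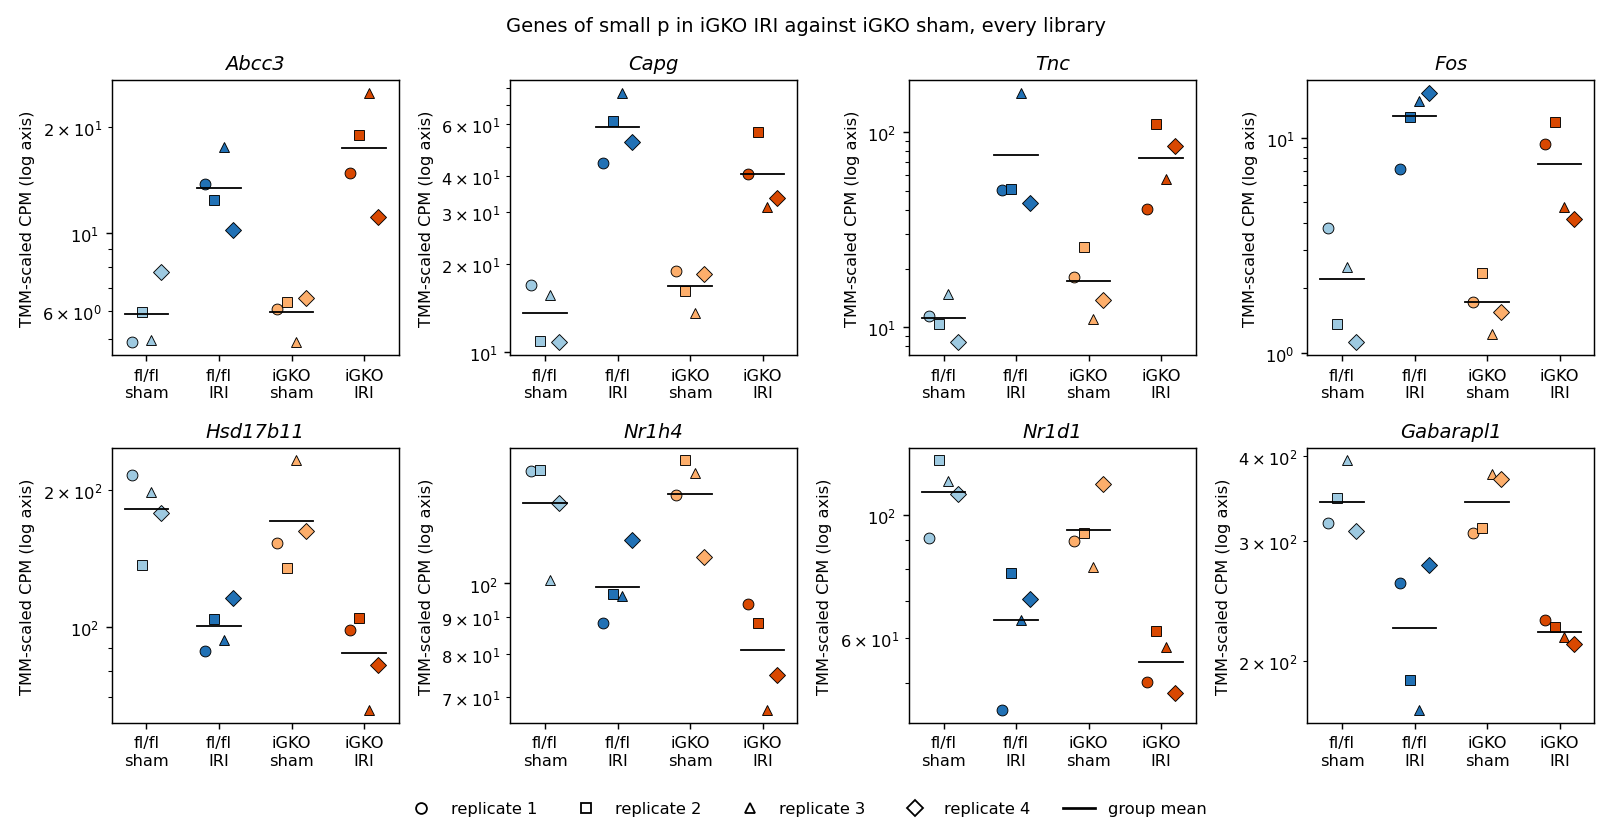
TMM-scaled CPM on a log axis for 4 higher and 4 lower genes of small p, with each of the 16 libraries as a point, the symbol giving the replicate number and the bar the group mean. In iGKO the sham and IRI points do not overlap for any of the 8 genes, and none passed the adjusted edgeR test.

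Leaving out iGKO sham 4 brought other genes to the front. Relt, a member of the tumour necrosis factor receptor family, then had the smallest p. It stood at 0.45, 0.804, 0.503 and 1.68 CPM in sham 1 to 4 and at 2.15, 2.53, 2.65 and 2.50 CPM in IRI 1 to 4, so sham 4 was the sham library nearest to IRI. The log2 fold change of Relt was 1.51 ± 0.36 (SE) with 8 libraries and 2.06 ± 0.31 with 7, adjusted p 0.124 (edgeR). Rida, a mitochondrial and cytosolic enzyme that clears reactive imines, was at 344, 315, 383 and 116 CPM and at 221, 227, 208 and 190.3 CPM. Here sham 4 lay below all IRI libraries and sham 1 to 3 above them, and the log2 fold change was -0.45 ± 0.25 (SE) with it and -0.70 ± 0.13 without it. The mitochondrial ribosomal RNA mt-Rnr1 had the same order, with 844, 1004, 1039 and 97.9 CPM and 505, 497, 539 and 460.0 CPM. It is one of the mitochondrially encoded genes by whose share sham 4 was set apart. The libraries had been depleted of ribosomal RNA. Tnfaip8l1, a regulator of cell death and autophagy, was at 0.676, 0.804, 1.17 and 1.75 CPM and 2.15, 3.08, 2.97 and 3.18 CPM. Thoc7, an mRNA export factor, was at 56.7, 52.1, 60.7 and 36.7 CPM and 38.5, 36.1, 34.6 and 36.8 CPM.

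Of 32 tubular injury and repair markers, 31 were tested, and 12 were higher and 0 lower in iGKO at an unadjusted p under 0.05 (background 3.86% higher). Without iGKO sham 4 the count was 7 of 32 (background 6.85%), and without fl/fl IRI 3 it was 16. It was 6 without iGKO sham 3, where 517 of 18370 genes tested were higher. Without iGKO IRI 2 it was 7, where 458 of 18285 were higher. The median log2 fold change was 0.80, or 0.68 without iGKO sham 4, beside -0.02 and 0.02 over all genes. In fl/fl, 21 of these genes rose at the adjusted threshold (8.46% of all genes) and the median was 2.02. Havcr1, the phosphatidylserine receptor of injured proximal tubule, stood at 19.5, 126, 13.2 and 21.7 CPM after sham and at 84.0, 104, 28.0 and 122 CPM after IRI. Sham 2 was above all IRI libraries, and IRI 3 was the lowest of its group. The log2 fold change was 0.91 ± 0.78 (SE; 0.69 ± 0.86 without iGKO sham 4), edgeR adjusted p 0.973, against 6.32 (adjusted p 0.00117) in fl/fl, and the interaction of -5.42 (adjusted p 0.244) did not pass. Krt20, a keratin of damaged tubule, was at 1.13, 34.4, 1.29 and 3.30 CPM and at 10.7, 6.66, 5.75 and 8.99 CPM, also with sham 2 on top. Without iGKO sham 2 the log2 fold change of Krt20 turned from -0.33 to 2.07, and that of Havcr1 was 2.22. Neither passed the adjusted test there (edgeR adjusted p 0.999 and 0.999).

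Lcn2, the siderophore-binding protein NGAL of stressed distal tubule and neutrophils, separated the groups. It stood at 19.7, 20.4, 10.1 and 13.3 CPM after sham and at 56.4, 35.2, 53.5 and 29.9 CPM after IRI, with no overlap. The fit gave 1.46 ± 0.53 (SE) on the log2 scale, edgeR adjusted p 0.657, and 1.41 ± 0.61 without iGKO sham 4. Its fl/fl libraries were at 4.27 to 17.3 CPM after sham and 47.6 to 412 CPM after IRI. Plaur, the urokinase receptor, was at 5.86, 8.54, 4.64 and 6.81 CPM and at 12.8, 18.2, 11.2 and 24.0 CPM, again with all IRI libraries higher. The intermediate filament gene Vim, used by fibroblasts and dedifferentiated tubule, was at 118, 80.1, 54.9 and 50.8 CPM and at 140.5, 362, 174 and 147 CPM, highest in IRI 2. Spp1, which encodes osteopontin, was at 858, 1729, 691 and 1053 CPM and at 2562, 2031, 1078 and 1856 CPM. Sham 2 was the highest sham library for Spp1 and overlapped the IRI group. Sox9, the transcription factor of tubule repair, was at 1.65, 4.89, 1.23 and 3.37 CPM and at 3.79, 3.21, 3.60 and 5.74 CPM, whereas fl/fl stood at 1.90 to 3.24 CPM after sham and 12.2 to 224 CPM after IRI. The log2 fold change of Sox9 was 0.55 ± 0.66 (SE; 0.66 ± 0.76 without iGKO sham 4) in iGKO and 5.13 (adjusted p 0.000803) in fl/fl, with an interaction of -4.58 (edgeR adjusted p 0.244).

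**Figure D2:**
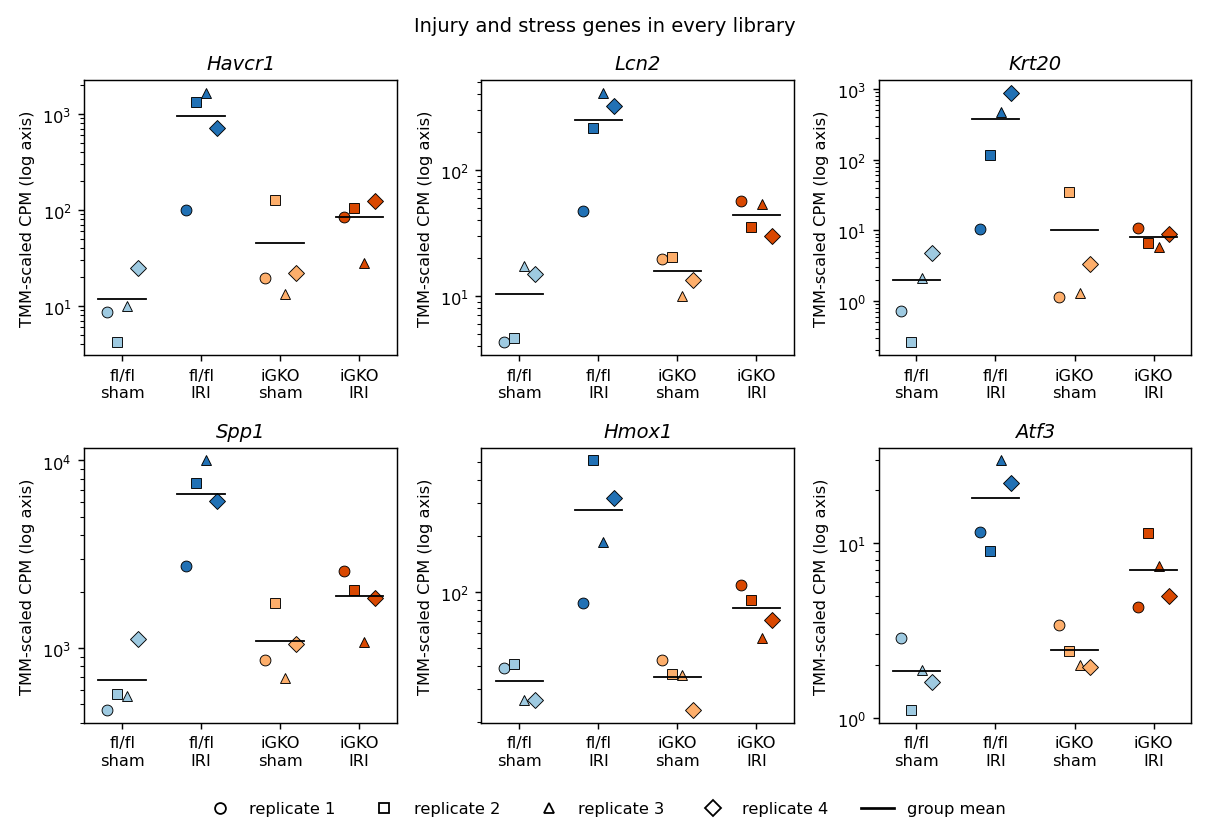
TMM-scaled CPM on a log axis for 6 injury and stress genes, with each library as a point, the symbol giving the replicate number and the bar the group mean. Lcn2, Hmox1 and Atf3 separate iGKO sham from iGKO IRI, while iGKO sham 2 lies above every iGKO IRI library for Havcr1 (126 CPM) and Krt20 (34.4 CPM).

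All 23 immediate early genes, the transcription factors and signalling genes that cells switch on within minutes of a stimulus, were tested. In iGKO 5 were higher at an unadjusted p under 0.05 and none lower (3.86% of all genes higher, 6.85% without iGKO sham 4). The number was 10 without iGKO sham 4, and the median log2 fold change was 0.53 with it and 0.71 without it. In fl/fl 21 rose at the adjusted threshold (8.46% of all genes) with a median of 2.19. Besides Fos, Atf3, a stress-induced repressor, stood at 3.38, 2.41, 2.01 and 1.95 CPM and at 4.31, 11.4, 7.39 and 5.00 CPM, and no sham library reached the IRI range. Atf3 had a log2 fold change of 1.53 ± 0.41 (SE; 1.46 ± 0.45 without iGKO sham 4), edgeR adjusted p 0.497. The early growth response genes overlapped between groups: Egr2 was at 1.13, 2.35, 1.01 and 1.01 CPM and 4.08, 5.86, 2.65 and 1.55 CPM, and Egr3 at 0.3, 0.186, 0.112 and 0.0674 CPM and 0.52, 1.79, 0.758 and 0.27 CPM. Egr3 lay near the level that 3 reads give in several sham libraries. Myc, a driver of growth and ribosome production, was at 16.0, 21.6, 9.11 and 13.9 CPM and at 24.9, 16.1, 20.9 and 21.8 CPM, with sham 2 inside the IRI range. A log2 fold change of 0.46 ± 0.36 (SE; 0.44 ± 0.40 without iGKO sham 4) in iGKO stood beside 3.02 (adjusted p 0.000583) in fl/fl.

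The integrated stress response raises amino acid synthesis and transport through the factor ATF4. Of 23 target genes 22 were tested. At an unadjusted p under 0.05, 6 were higher and none lower, both with and without iGKO sham 4 (3.86% of all genes higher, 6.85% without iGKO sham 4). The count was 3 without iGKO IRI 3 and 7 without fl/fl sham 2. Asns, asparagine synthetase, stood at 4.13, 4.39, 4.86 and 2.56 CPM after sham and at 7.57, 9.01, 9.60 and 9.19 CPM after IRI. The groups did not overlap, and the log2 fold change was 1.15 ± 0.38 (SE; 1.00 ± 0.40 without iGKO sham 4), edgeR adjusted p 0.629. Slc7a11, the cystine importer, was at 1.20, 1.18, 0.782 and 0.0674 CPM and at 2.67, 4.87, 3.29 and 2.43 CPM, likewise apart. Sham 4 was the lowest, below the 0.202 CPM that 3 reads give there. Slc7a5, the importer of large neutral amino acids, was at 4.81, 5.38, 3.35 and 3.91 CPM and at 9.43, 7.34, 6.44 and 9.66 CPM. The list median was 0.29, beside 1.20 in fl/fl, where 14 rose (8.46% of all genes).

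The promoters of Fos, Atf3 and Asns, chosen after their values were seen, are shown as examples from both lists of genes whose groups did not overlap. Each run is the 250 bases before the RefSeq transcription start, 5′ to 3′ on the coding strand (GRCm38.p6, a build older than the GRCm39 of the count table). Capitals mark matches, on either strand, to the C/EBP-ATF response element (CARE, searched as TGATGNAA) or to the antioxidant response element (ARE, TGACNNNGC). The AP-1 (TGANTCA), CRE (TGACGTCA) and NF-kappaB (GGGNNTTCC) motifs were searched too. CARE was found in 3.45% and ARE in 10.2% of all 32851 promoters of that length. In the integrated stress response list, 7 of 21 genes with a promoter in the table held a CARE match, which is a description of letters and not a measured site.
Fos, chr12:85473640-85473889, plus strand: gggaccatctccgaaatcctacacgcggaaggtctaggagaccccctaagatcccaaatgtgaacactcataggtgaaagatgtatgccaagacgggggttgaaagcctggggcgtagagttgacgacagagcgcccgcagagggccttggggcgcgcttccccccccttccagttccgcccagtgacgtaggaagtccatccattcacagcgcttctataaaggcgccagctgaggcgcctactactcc
Atf3, chr1:191183334-191183583, minus strand: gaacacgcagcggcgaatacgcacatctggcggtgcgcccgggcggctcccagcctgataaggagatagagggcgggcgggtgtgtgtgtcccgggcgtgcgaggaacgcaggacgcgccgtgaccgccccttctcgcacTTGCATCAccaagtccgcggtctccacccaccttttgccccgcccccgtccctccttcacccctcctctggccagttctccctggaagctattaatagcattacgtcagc
Asns, chr6:7693210-7693459, minus strand: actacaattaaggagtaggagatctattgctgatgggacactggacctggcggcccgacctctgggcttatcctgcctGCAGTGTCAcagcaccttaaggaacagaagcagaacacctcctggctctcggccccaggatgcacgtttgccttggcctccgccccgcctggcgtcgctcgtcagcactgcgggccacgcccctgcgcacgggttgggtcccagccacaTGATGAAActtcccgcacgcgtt
In Atf3 the CARE match began 110 bases before the start. In Asns the CARE match began 23 bases and the ARE match 172 bases before it. None of the 5 motifs was found in the Fos window, which says only that these letters are not there. Of 17 immediate early genes with a promoter in the table, 1 held a CARE match in any of its promoters.

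Other stress lists held fewer genes past the unadjusted threshold. Among 25 antioxidant genes of the NRF2 list, 2 were higher and 1 lower at an unadjusted p under 0.05, and 2 and 4 without iGKO sham 4, with a median of -0.16 or -0.18. The lower count was 0 without iGKO sham 3 and 2 without fl/fl IRI 1, fl/fl IRI 3 or fl/fl IRI 4. All genes gave 3.86% higher and 2.52% lower, or 6.85% and 5.15% without iGKO sham 4. Hmox1, the heme-degrading enzyme, stood at 43.2, 36.3, 35.9 and 23.0 CPM after sham and at 109, 90.4, 56.4 and 70.1 CPM after IRI, a 2.36-fold difference with no overlap (edgeR adjusted p 0.59). Cat, which encodes catalase, was lower: 1052, 961, 964 and 599.7 CPM and 685, 634, 581 and 597 CPM, with sham 4 inside the IRI range. Cat had a log2 fold change of -0.52 ± 0.22 (SE) and, without iGKO sham 4, -0.65 ± 0.20. In the heat shock list 2 of 16 genes were higher and 0 lower, 2 and 1 without iGKO sham 4. The higher genes with 8 libraries were Hspb1, at 17.3, 14.3, 11.0 and 9.57 CPM and 30.5, 22.0, 28.7 and 36.4 CPM, and Hspb8, at 7.13, 3.96, 4.92 and 5.52 CPM and 8.02, 9.81, 9.98 and 6.96 CPM, both small chaperones. Of 19 genes of the p53 response, 3 were higher, or 2 without iGKO sham 4 and 1 without iGKO sham 3. Cdkn1a, the cyclin-dependent kinase inhibitor p21, was at 11.6, 17.1, 9.55 and 11.9 CPM and at 25.5, 25.5, 36.9 and 23.6 CPM. It separated the groups, with 1.15 ± 0.50 (SE; 1.14 ± 0.57 without iGKO sham 4) on the log2 scale (edgeR adjusted p 0.751), beside 3.52 (adjusted p 0.00117) in fl/fl. Ripk3, the kinase of necroptosis, was at 1.88, 1.30, 0.726 and 0.741 CPM and at 4.08, 4.44, 2.91 and 3.24 CPM, also apart. DESeq2 called Ripk3 higher (adjusted p 0.0159). Nlrp3, the inflammasome sensor, was at 2.33, 2.41, 1.01 and 2.36 CPM and at 4.53, 5.12, 3.85 and 3.31 CPM. Herpud1, an endoplasmic reticulum gene, was lower, with 160.1, 192, 209 and 193 CPM and 107, 153, 144 and 108 CPM.

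Among inflammatory signals a few genes passed the unadjusted threshold. Of 27 cytokines and chemokines 21 were tested, and 5 were higher and none lower at an unadjusted p under 0.05, 3 without iGKO sham 4 (3.86% of all genes higher, 6.85% without iGKO sham 4). The count was 2 without iGKO sham 2 and 3 without iGKO sham 3, iGKO IRI 1 or iGKO IRI 2. It was 7 without iGKO sham 1 or fl/fl IRI 4. Il6 had too few reads to be tested. Cxcl2, a neutrophil attractant, stood at 1.05, 0.804, 0.782 and 0.472 CPM after sham and at 2.60, 5.74, 2.72 and 1.22 CPM after IRI. All IRI libraries were higher, yet the fl/fl IRI libraries reached 7.32 to 24.5 CPM. Ccl2, a monocyte attractant, was at 5.71, 0.804, 1.51 and 0.337 CPM and at 7.72, 5.06, 7.90 and 4.32 CPM, with sham 1 inside the IRI range. Ccl2 had a log2 fold change of 1.60 ± 0.63 (SE; 1.27 ± 0.59 without iGKO sham 4) in iGKO and 1.59 (adjusted p 0.108) in fl/fl, which did not pass either. Csf1, the macrophage growth factor, was at 20.3, 25.3, 13.8 and 17.7 CPM and at 26.5, 42.7, 30.8 and 33.0 CPM. In the list of IL-6 family receptors and STAT3 targets 5 of 20 were higher, also 5 without iGKO sham 4. The count was 3 without iGKO sham 1 or iGKO sham 3, and 6 without fl/fl IRI 1, fl/fl IRI 4 or iGKO IRI 4. Lrg1, a secreted glycoprotein induced by inflammation, stood at 19.6, 20.9, 18.9 and 21.4 CPM and at 47.5, 40.5, 96.0 and 38.0 CPM, with IRI 3 far above the others. Among 16 NF-kappaB subunits and feedback genes 1 was higher, and 4 without iGKO sham 4. The count was 0 without iGKO sham 1 or iGKO sham 3 and 2 without iGKO IRI 4. In fl/fl 11 of them rose (8.46% of all genes). C5ar1, the receptor for the complement fragment C5a, was at 8.78, 4.27, 5.31 and 1.21 CPM and at 24.1, 26.2, 15.0 and 12.8 CPM, apart in all libraries, and was called by DESeq2 (adjusted p 0.0387). Of 19 complement genes 5 were higher, 4 without iGKO sham 4 and 7 without iGKO IRI 4. The count was 1 without iGKO sham 2 or iGKO IRI 2, 2 without iGKO IRI 1 and 3 without iGKO sham 1 or iGKO sham 3.

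Markers of cells that enter or live in the kidney were higher in part of the IRI libraries. Of 20 monocyte and macrophage markers 11 were higher at an unadjusted p under 0.05, with a median log2 fold change of 1.02 (3.86% of all genes higher, 6.85% without iGKO sham 4). The count moved with single libraries, from 14 without fl/fl IRI 1 to 2 without iGKO IRI 2. It was 7 without iGKO sham 4, 7 without iGKO sham 3, 4 without iGKO IRI 1 and 3 without iGKO sham 2. Over all genes, 517 of 18370 were higher without iGKO sham 3 and 773 of 18393 without iGKO IRI 1. Those numbers were 529 of 18370 without iGKO sham 2 and 458 of 18285 without iGKO IRI 2. The list median stayed at 0.88 to 1.20 with any 1 library left out. In fl/fl 2 rose (8.46% of all genes), and the median was 0.44. Cd68, a lysosomal protein of macrophages, stood at 9.16, 5.01, 9.50 and 2.36 CPM after sham and at 24.8, 30.4, 9.23 and 7.03 CPM after IRI, so IRI 1 and 2 were high and IRI 3 and 4 within the sham range. C1qb, a complement subunit made by resident macrophages, was at 26.3, 18.6, 27.1 and 23.6 CPM and at 53.2, 71.6, 31.3 and 33.2 CPM, with no overlap. Chil3 and Ccr2, which mark recruited monocytes, had log2 fold changes of 1.61 ± 0.59 (SE; 1.25 ± 0.48 without iGKO sham 4) and 1.01 ± 0.40 (SE; 0.80 ± 0.40 without iGKO sham 4). Of 16 neutrophil markers 13 were tested. At the unadjusted threshold 5 were higher, 2 without iGKO sham 4 and likewise without iGKO sham 2 or iGKO IRI 2, 3 without iGKO sham 3, and 8 without iGKO IRI 4 (3.86% of all genes higher, 6.85% without iGKO sham 4). Summed, they stood at 59.6, 37.4, 30.4 and 18.7 CPM in sham 1 to 4 and at 117, 121, 87.1 and 48.4 CPM in IRI 1 to 4. Lcn2, which stressed distal tubule also makes, had the largest mean of these markers in iGKO, 29.8 CPM. The next was Csf3r with 7.65 CPM. Lcn2 alone made up most of the sum in sham 2, sham 4, IRI 3 and IRI 4. The part of neutrophils in the sum was not tested. The 4 fl/fl IRI libraries summed to 104, 367, 701 and 377 CPM. Csf3r, the neutrophil growth factor receptor, was at 5.86, 4.46, 3.63 and 1.82 CPM and at 11.1, 16.0, 11.9 and 6.42 CPM. Of 8 lymphocyte markers tested, 0 passed the unadjusted threshold in either direction.

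Matrix and fibroblast genes were higher in number but leaned on iGKO IRI 2. Of 27 extracellular matrix genes 14 were higher at an unadjusted p under 0.05, also 14 without iGKO sham 4 (3.86% of all genes higher, 6.85% without iGKO sham 4). The count was 2 without iGKO IRI 2, where 458 of 18285 genes tested were higher. It was 18 without iGKO IRI 4, where 839 of 18346 were higher. The fibroblast and mural cell markers numbered 7 of 17, 9 without iGKO sham 4, 3 without iGKO IRI 2 and 11 without iGKO IRI 4. Col1a1, a fibrillar collagen, stood at 247, 235, 174 and 649 CPM after sham and at 364, 3598, 900.1 and 555 CPM after IRI. Col3a1, its partner in loose connective tissue, was at 279, 152, 204 and 463 CPM and at 233, 3604, 654 and 382 CPM. IRI 2 stood several times above the rest for both, and sham 4 was the highest sham library. The matrix protease Mmp2, at 8.24, 142, 11.6 and 3.92 CPM in IRI 1 to 4, and the imprinted noncoding RNA Meg3, at 2.00, 35.0, 6.26 and 0.27 CPM, were also highest there. Without iGKO IRI 2 the log2 fold change of Mmp2 went from 2.38 to -0.016. Tagln, a smooth muscle actin-binding protein, differed from this pattern with 43.7, 42.6, 45.3 and 30.4 CPM and 49.7, 71.9, 135 and 99.4 CPM. Each IRI library was above the sham range for Tagln, and DESeq2 called it (adjusted p 0.0319). Tnc was above the sham range in all IRI libraries. Without iGKO IRI 2 its log2 fold change was 1.83, and that of Col1a1 was 0.89.

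**Figure D3:**
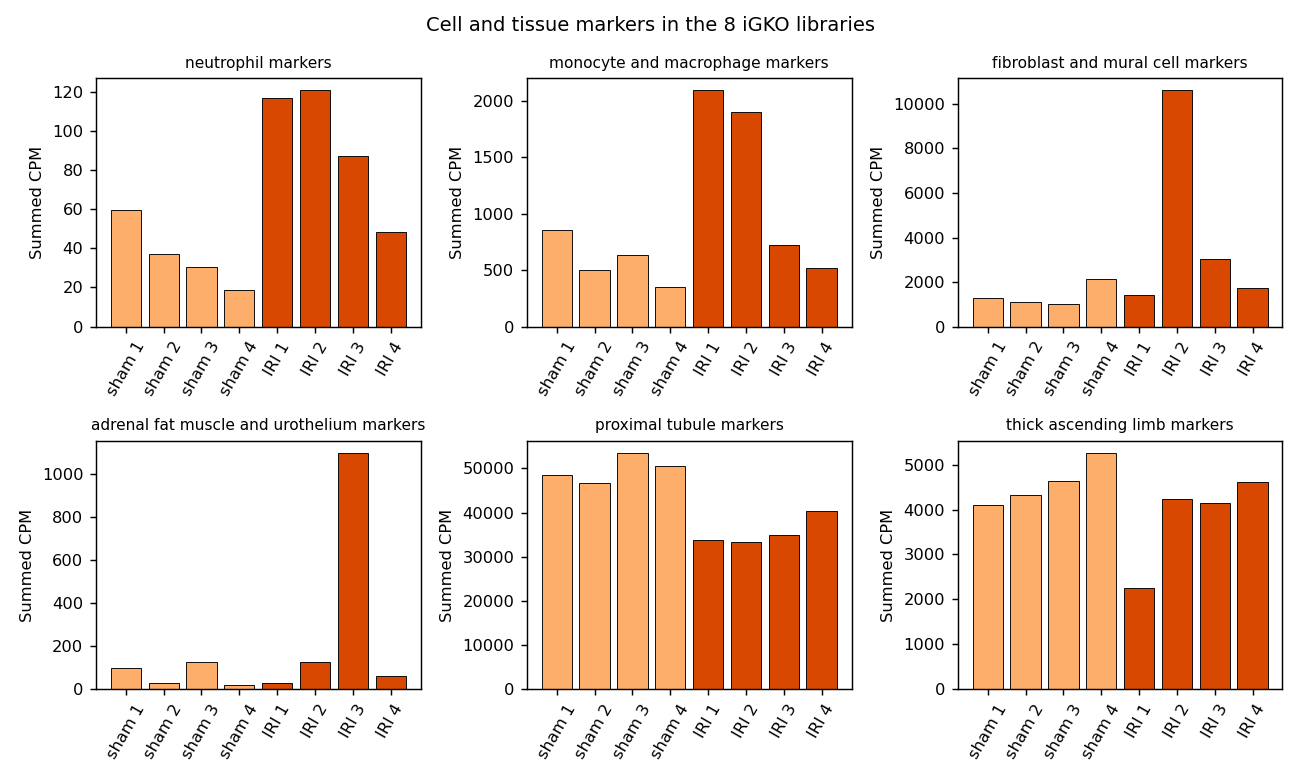
Bars from 0 give the summed TMM-scaled CPM (vertical axis) of each marker list in the 8 iGKO libraries (horizontal axis), sham in light and IRI in dark orange. Macrophage markers were highest in IRI 1 and 2. Fibroblast markers were highest in IRI 2 (10612 CPM) and markers of fat and urothelium in IRI 3 (1100.2 CPM). Proximal tubule markers were lower in all IRI libraries than in any sham library. Fn1 had the largest mean of the macrophage markers, and Lcn2 that of the neutrophil markers.

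The proximal tubule reclaims most filtered solutes, and its 32 markers were mostly lower: 31 had a negative log2 fold change, with a median of -0.45, or -0.34 without iGKO sham 4. At an unadjusted p under 0.05 3 were lower and none higher (background 2.52% lower), and 5 were lower without iGKO sham 4 (5.15%). The count was 0 without iGKO IRI 3 or without iGKO sham 3, 1 without iGKO IRI 1, 6 without fl/fl IRI 1 and 12 without fl/fl IRI 3. Over all genes, 261 of 18325 were lower without iGKO IRI 3 and 309 of 18370 without iGKO sham 3. Those numbers were 515 of 18393 without iGKO IRI 1, 575 of 18392 without fl/fl IRI 1 and 514 of 18347 without fl/fl IRI 3. The groups did not overlap for 7 of them, beside 2.76% of all genes, and for 13 without iGKO sham 4 (10.4%). Their summed level was 48481, 46721, 53508 and 50529 CPM in sham 1 to 4 and 33705, 33302, 34825 and 40358 CPM in IRI 1 to 4, and the ranges were apart. In fl/fl 18 fell (7.01% of all genes) with a median of -1.04. Slc34a1, the apical sodium-phosphate cotransporter, stood at 4079, 4040.1, 4663 and 5435 CPM after sham and at 3225, 2741, 3493 and 3817 CPM after IRI. Every IRI library was lower, and the log2 fold change was -0.46 ± 0.33 (SE; -0.34 ± 0.36 without iGKO sham 4) (edgeR adjusted p 0.945), beside -1.35 (adjusted p 0.0144) in fl/fl. Cyp2e1, a cytochrome P450, was at 938, 806, 1033 and 772 CPM and at 668, 494, 300.1 and 448 CPM, apart as well. Cubn, the endocytic receptor cubilin, was at 1315, 1303, 1714 and 739 CPM and at 954, 878, 871 and 857 CPM. For Cubn sham 4 lay below all IRI libraries, and the log2 fold change was -0.51 ± 0.25 (SE) with it and -0.68 ± 0.23 without it. Ggt1, the brush-border glutathione hydrolase, had -0.49 ± 0.21 (SE; -0.32 ± 0.20 without iGKO sham 4), and the medium-chain acyl-CoA ligase gene Acsm2 had -0.63 ± 0.26 (SE; -0.51 ± 0.27 without iGKO sham 4).

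Further along the nephron few markers passed the unadjusted threshold. Of 15 thick ascending limb markers tested, 0 passed the unadjusted threshold, and their summed level was low in IRI 1 only (2243, 4225, 4134 and 4616 CPM in IRI 1 to 4). Egf, the growth factor precursor of this segment, stood at 1159.9, 1185, 1336 and 1490.0 CPM and at 272, 855, 925 and 740.4 CPM, lower in all IRI libraries, with IRI 1 the lowest. Slc12a1, the sodium-potassium-chloride cotransporter, was at 453, 439, 602 and 436 CPM and at 171, 485, 429 and 364 CPM, and Umod, uromodulin, at 1626, 1829, 1812 and 2455 CPM and 1060.0, 2155, 2024 and 2717 CPM. Both overlapped between groups. In fl/fl Slc12a1 fell with -2.18 (adjusted p 0.00281). Among 17 markers of the distal convoluted and connecting tubule 1 was lower, or 3 without iGKO sham 4, and 2 without fl/fl IRI 1, fl/fl IRI 4 or iGKO IRI 3 (2.52% of all genes lower, 5.15% without iGKO sham 4). With 8 libraries it was Fxyd2, a regulatory subunit of the sodium pump, at 938, 1002, 962 and 969 CPM and 744, 696, 723 and 806 CPM. The groups were apart for Fxyd2, with -0.38 ± 0.14 (SE; -0.37 ± 0.14 without iGKO sham 4) on the log2 scale (edgeR adjusted p 0.666). Kl, which encodes the phosphate hormone coreceptor klotho, was at 707, 813, 979 and 751 CPM and at 535, 559.7, 759 and 761 CPM. Sham and IRI overlapped for Kl, whose log2 fold change was -0.31 ± 0.32 (SE; -0.34 ± 0.35 without iGKO sham 4) in iGKO and -1.53 (adjusted p 0.00713) in fl/fl. Scnn1a, a subunit of the collecting duct sodium channel, was at 143, 168, 138 and 156 CPM and at 114, 110.2, 112 and 102 CPM. Of 19 endothelial markers 3 were higher and 1 lower, and 4 and 1 without iGKO sham 4 (3.86% of all genes higher, 6.85% without iGKO sham 4). The higher count was 0 without iGKO IRI 3 and 1 without iGKO sham 1, iGKO sham 2, iGKO sham 3 or iGKO IRI 2, and the lower count was 0 without iGKO sham 2. The lower marker was Ehd3 of the glomerular endothelium, at 29.1, 38.9, 30.8 and 43.2 CPM and 21.8, 25.4, 29.5 and 26.1 CPM. No podocyte marker passed the unadjusted threshold with all libraries, and 1 was higher and 1 lower without iGKO sham 4.

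Results on mitochondrial RNA depended on iGKO sham 4. The share of counts from the 37 mitochondrially encoded genes was 6.07, 6.30, 6.45 and 0.443% in sham 1 to 4 and 4.51, 4.03, 3.01 and 2.05% in IRI 1 to 4. The means were 4.81 ± 2.92% after sham and 3.40 ± 1.10% after IRI (SD, n = 4 each; exact two-sided permutation p 0.429). Without iGKO sham 4 the sham mean was 6.27 ± 0.193% (SD, n = 3), and the ranges were apart (exact permutation p 0.0571, the smallest that 4 against 3 allows). That library was left out because of this same share. The separation and the small SD without it follow in part from that choice. They are descriptions and not a test, as are the counts of mitochondrial mRNAs without it. The fl/fl shares were 4.43 to 6.48% after sham and 2.99 to 5.37% after IRI. Of the 13 mRNAs of the mitochondrial genome none passed the unadjusted threshold with 8 libraries, and the median log2 fold change was -0.65. Without iGKO sham 4 11 were lower at an unadjusted p under 0.05 (background 5.15%), 12 did not overlap (10.4%), and the median was -0.98. None passed the adjusted test. Counts were uneven among the 13. Means over the 8 iGKO libraries were 2.52 to 18.0 CPM for mt-Nd3, mt-Nd4l, mt-Atp8, mt-Co3, mt-Atp6 and mt-Co2. For the others they were 405 to 8665 CPM. Why the former held so few reads was not tested, and each weighs the same in these counts and medians. The complex I subunit mt-Nd2 stood at 3865, 4169.7, 4640.2 and 195 CPM and at 2387, 2157, 1605 and 1119 CPM, with -0.82 ± 0.55 (SE) on the log2 scale with all libraries and -1.20 ± 0.25 without iGKO sham 4 (edgeR adjusted p 0.926 and 0.239). mt-Nd5, of the same complex, was at 7226, 7446, 8372 and 1156 CPM and at 5102, 4118, 3252 and 2937 CPM, in the same order. mt-Atp6, of the ATP synthase, was at 16.1, 25.4, 38.8 and 0.809 CPM and at 11.9, 11.8, 7.52 and 5.47 CPM. mt-Nd6, chosen after its values were seen, was the exception, at 402, 323, 401 and 200.3 CPM and 200.2, 379.9, 627 and 709 CPM. It is the only mRNA encoded on the other strand, and the strand setting of the counting is not given in the sources used here, so reads of opposite transcripts cannot be told apart.

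**Figure D4:**
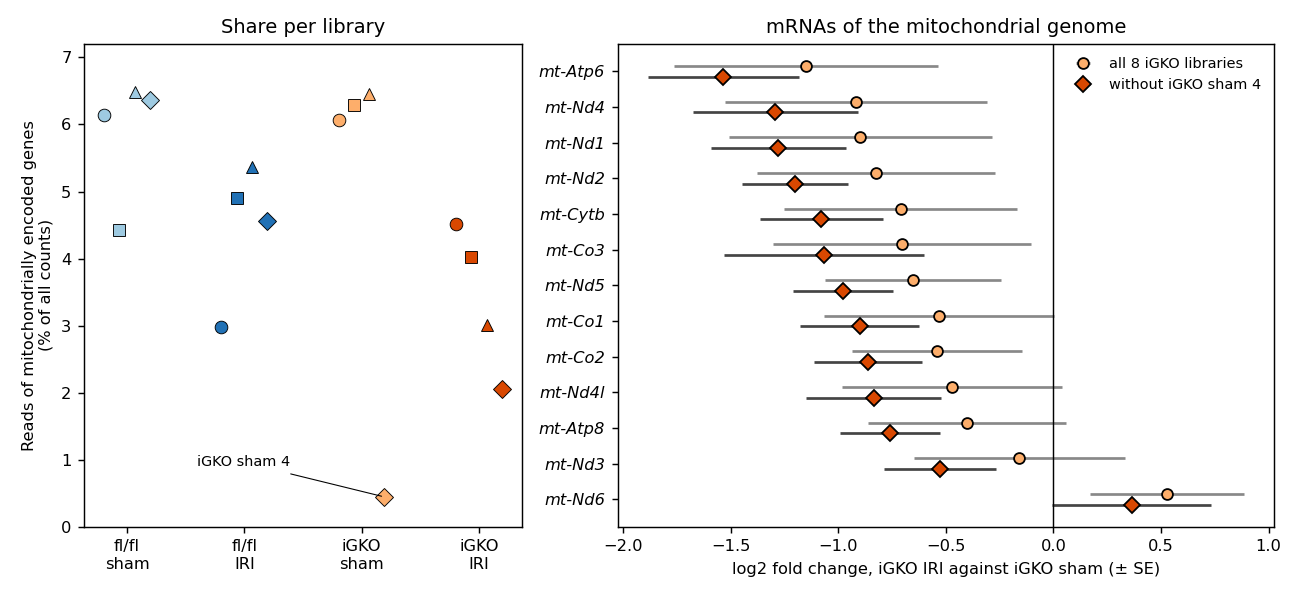
Left, percent of all counts from mitochondrially encoded genes in each library, by group, the symbol giving the replicate number; right, log2 fold change ± SE of the 13 mitochondrial mRNAs in iGKO IRI against sham with all 8 libraries and without iGKO sham 4. The point of iGKO sham 4 lies at 0.443%, and leaving it out moves the median of the 13 from -0.65 to -0.98.

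Nuclear genes for the respiratory chain also had negative medians. Of 38 complex I subunits 6 were lower and none higher at an unadjusted p under 0.05, and 13 were lower without iGKO sham 4 (2.52% of all genes lower, 5.15% without iGKO sham 4). The count was 3 without iGKO sham 3 or iGKO IRI 2. The medians were -0.14 and -0.18, beside -0.47 in fl/fl, where 14 fell (7.01% of all genes). Ndufa10, an accessory subunit, stood at 177, 182, 179.7 and 148 CPM after sham and at 132, 124, 137 and 119 CPM after IRI. The groups were apart, with -0.42 ± 0.12 (SE) on the log2 scale and -0.47 ± 0.11 without iGKO sham 4 (edgeR adjusted p 0.54 and 0.239). Ndufv3 was at 83.2, 86.1, 95.7 and 119 CPM and at 67.6, 58.3, 71.5 and 63.4 CPM, and here sham 4 was the highest library. Among 27 subunits of complexes II to IV 6 were lower, 11 without iGKO sham 4 and 3 without iGKO sham 3 or iGKO IRI 2. Cox7a2, of cytochrome oxidase, was at 131, 129, 145 and 88.9 CPM and at 104, 75.7, 75.1 and 61.4 CPM. Of 16 ATP synthase genes 3 were lower, 5 without iGKO sham 4, 1 without iGKO IRI 2 or IRI 3 and 0 without iGKO sham 2 or sham 3. Atp5c1, the rotor shaft, was at 214, 226, 245 and 114 CPM and at 159.6, 151, 155 and 156 CPM, with sham 4 below all IRI libraries. The summed levels of these lists were low in IRI 1 and 2 and within the sham range or above it in IRI 3 and 4. For complex I they were 3806, 3741, 3983 and 4029.5 CPM after sham and 2873, 2929, 3899 and 4201 CPM after IRI.

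The tricarboxylic acid cycle, which feeds the chain, had 4 of 23 genes lower and none higher, and 8 lower without iGKO sham 4 (2.52% of all genes lower, 5.15% without iGKO sham 4). The groups did not overlap for 7 lower genes (2.76% of all genes), or 13 without iGKO sham 4 (10.4%). Idh2, the mitochondrial isocitrate dehydrogenase, stood at 293, 322, 327 and 429 CPM and at 212, 225, 265 and 232 CPM. Suclg2, of succinyl-CoA synthetase, was at 336, 323, 340.2 and 281 CPM and at 260.5, 205, 226 and 245 CPM, and Mdh1, the cytosolic malate dehydrogenase, at 781, 714, 851 and 841 CPM and 480.4, 491, 636 and 567 CPM. All 3 separated the groups with edgeR log2 fold changes of -0.55, -0.45 and -0.55, and none passed. Of 37 fatty acid oxidation genes 4 were lower and none higher, and 2 lower without iGKO sham 4 or iGKO IRI 2. The lower count was 5 without fl/fl IRI 4. Cyp4a12a, a fatty acid hydroxylase, was at 56.8, 55.5, 78.6 and 67.2 CPM and at 44.8, 32.9, 7.14 and 22.2 CPM, lowest in IRI 3, and Ppara, the receptor that governs these enzymes, at 119.6, 122, 102 and 118 CPM and 94.1, 87.4, 96.3 and 72.8 CPM. Ppargc1a, the coactivator PGC-1 alpha of mitochondrial biogenesis, was at 132, 135, 144 and 80.7 CPM and at 110.0, 100.5, 118 and 83.7 CPM. Sham 4 was the lowest library for Ppargc1a, so the log2 fold change was -0.25 ± 0.20 (SE) with it and -0.40 ± 0.18 without it (edgeR adjusted p 0.966 and 0.416). Sirt3, the mitochondrial deacetylase, was at 80.5, 92.9, 86.2 and 92.8 CPM and at 70.5, 61.1, 58.1 and 59.1 CPM, without overlap. Among cristae genes 1 of 14 genes was lower, 6 without iGKO sham 4, and 0 without iGKO sham 3 or iGKO IRI 2 and 2 without fl/fl IRI 1 or fl/fl IRI 4. Immt, the core of the MICOS complex that shapes cristae, was at 298, 310.0, 343 and 206 CPM and at 245, 239, 272 and 281 CPM, with sham 4 the lowest. Its log2 fold change was -0.16 ± 0.14 (SE) and, without iGKO sham 4, -0.27 ± 0.11. Chchd3, another MICOS subunit, was at 102, 109, 107 and 96.8 CPM and at 82.6, 75.9, 88.7 and 93.5 CPM, lower in all IRI libraries.

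Ceramide genes showed few differences. Of 14 genes of de novo synthesis tested, 1 was higher and 0 lower with 8 libraries, at an unadjusted p under 0.05, and 1 and 1 without iGKO sham 4, with a median of 0.02 or -0.13. All genes gave 3.86% higher and 2.52% lower, or 6.85% and 5.15% without iGKO sham 4. The higher count was 0 without iGKO sham 3 or iGKO IRI 3. The higher gene with 8 libraries was Ormdl3, a brake on serine palmitoyltransferase, at 17.0, 17.3, 13.9 and 20.4 CPM and 15.9, 23.6, 49.5 and 22.4 CPM, where IRI 3 stood apart and IRI 1 lay within the sham range. Sptlc2, a catalytic subunit of that enzyme, was at 118, 112, 120.4 and 118 CPM and at 147, 113, 109 and 142 CPM. The iGKO groups overlapped for Sptlc2, with 0.13 ± 0.23 (SE; 0.15 ± 0.25 without iGKO sham 4) on the log2 scale, whereas in fl/fl it rose with 1.36 (adjusted p 0.00214); the interaction was -1.24 (edgeR adjusted p 0.262). Cers6, a synthase of ceramides with shorter acyl chains, was at 187, 187, 210.3 and 101 CPM and at 159, 148, 109.9 and 114 CPM. Sham 4 was the lowest library for Cers6, and the log2 fold change was -0.37 ± 0.20 (SE) with it and -0.54 ± 0.15 without it (adjusted p 0.274 in edgeR). Degs2, the paralogous desaturase and hydroxylase, was at 19.2, 19.2, 28.3 and 25.2 CPM and at 24.9, 16.4, 14.0 and 28.6 CPM, overlapping, with -0.13 ± 0.34 (SE; -0.07 ± 0.38 without iGKO sham 4). Of 33 tested genes that use or break down ceramide 2 were higher and 3 lower, and 2 and 2 without iGKO sham 4. The higher count was 1 without iGKO sham 3 and 3 without fl/fl IRI 2, fl/fl IRI 4 or iGKO IRI 4. The lower count was 1 without iGKO IRI 1 or iGKO IRI 3 and 4 without fl/fl IRI 4. Asah2, the neutral ceramidase, was at 83.4, 72.2, 88.0 and 58.0 CPM and at 58.2, 59.8, 47.5 and 48.4 CPM. B4galnt1, a ganglioside synthase, was at 12.5, 13.4, 10.1 and 23.0 CPM and at 23.0, 24.7, 22.4 and 25.6 CPM, with sham 4 alone reaching the IRI range. S1pr2, a receptor for sphingosine 1-phosphate, was at 7.66, 6.50, 7.93 and 4.65 CPM and at 9.65, 14.9, 10.2 and 9.12 CPM, higher in each IRI library.

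Some remaining lists held single genes that separated the groups. All genes gave 3.86% higher and 2.52% lower at the unadjusted threshold, or 6.85% and 5.15% without iGKO sham 4. Among 18 clock genes 3 were lower and 1 higher, but 2 lower and 0 higher without iGKO sham 4. The lower count was 5 without fl/fl IRI 1, and the higher count was 0 without iGKO sham 1, iGKO IRI 1 or iGKO IRI 3 and 2 without fl/fl IRI 2 or fl/fl IRI 4. With Nr1d1 the lower genes were Ciart, a repressor of the clock, at 9.91, 9.71, 5.20 and 13.1 CPM and 1.34, 6.91, 4.36 and 3.45 CPM, and Dbp, a clock output factor, with a log2 fold change of -0.92 ± 0.41 (SE; -0.29 ± 0.34 without iGKO sham 4); Nfil3, which opposes Dbp, had 0.85 ± 0.37 (SE; 0.74 ± 0.41 without iGKO sham 4). Of 26 lysosome and autophagy genes 2 were higher and 1 lower, and 4 and 2 without iGKO sham 4. The higher count was 4 without fl/fl IRI 4 or iGKO IRI 4, and the lower count was 2 without fl/fl IRI 4, iGKO IRI 1 or iGKO IRI 2. Ctsb, the protease cathepsin B, stood at 593, 666, 609 and 615 CPM and at 907, 997, 814 and 791 CPM, above the sham range throughout, and DESeq2 called it (adjusted p 0.0159). Hk2, the inducible hexokinase, was at 5.71, 4.70, 4.02 and 3.84 CPM and at 9.43, 13.1, 111 and 7.43 CPM, and its high value came from IRI 3, the library with brown fat and urothelium RNA. Their part in it was not tested. Without iGKO IRI 3 the log2 fold change of Hk2 was 1.13 in place of 2.94. Phlda3, a p53 target, was likewise highest in IRI 3, with 9.65, 16.8, 51.1 and 17.7 CPM in IRI 1 to 4. Of 36 ribosome biogenesis factors 4 were higher, 6 without iGKO sham 4, 2 without iGKO sham 1 and 1 without iGKO sham 3, IRI 1 or IRI 4, with a median of 0.18. In fl/fl 30 rose (8.46% of all genes), with a median of 0.73, and 23 had a negative interaction at an unadjusted p under 0.05 (background 6.51%), none of which passed. Tsr1, a maturation factor of the small ribosomal subunit, was at 26.5, 30.3, 26.7 and 23.7 CPM and at 43.0, 34.2, 37.3 and 35.9 CPM, with no overlap.

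The lists not yet named held few genes past an unadjusted p of 0.05. In signalling there were 1 higher and 0 lower of 14 MAPK phosphatases and Sprouty genes (2 and 0 of 14 without iGKO sham 4, 0 to 2 and 0 to 1 with any 1 library left out) and 0 higher and 0 lower of 8 EGF receptor ligands and receptors (0 and 0 of 8 without iGKO sham 4, 0 to 0 and 0 to 1 with any 1 library left out). The endoplasmic reticulum chaperones and XBP1 targets gave 1 higher and 1 lower of 20 genes (2 and 1 of 20 without iGKO sham 4, 0 to 2 and 1 to 1 with any 1 library left out), and interferon-stimulated genes gave 1 higher and 0 lower of 25 genes (3 and 0 of 25 without iGKO sham 4, 0 to 3 and 0 to 0 with any 1 library left out). Among cells, collecting duct markers gave 0 higher and 2 lower of 19 genes (0 and 2 of 19 without iGKO sham 4, 0 to 1 and 1 to 5 with any 1 library left out) and erythrocyte markers 0 higher and 0 lower of 8 genes (0 and 0 of 8 without iGKO sham 4, 0 to 0 and 0 to 0 with any 1 library left out). In metabolism, cholesterol synthesis gave 0 higher and 0 lower of 24 genes (2 and 1 of 24 without iGKO sham 4, 0 to 2 and 0 to 1 with any 1 library left out), glycolysis and the hypoxia response 3 higher and 0 lower of 27 genes (3 and 0 of 27 without iGKO sham 4, 1 to 4 and 0 to 0 with any 1 library left out), and NAD synthesis 0 higher and 0 lower of 16 genes (0 and 2 of 16 without iGKO sham 4, 0 to 1 and 0 to 2 with any 1 library left out). Mitochondrial ribosomal proteins gave 0 higher and 1 lower of 76 genes (4 and 10 of 76 without iGKO sham 4, 0 to 4 and 0 to 10 with any 1 library left out), biogenesis regulators 0 higher and 2 lower of 18 genes (1 and 1 of 18 without iGKO sham 4, 0 to 1 and 0 to 3 with any 1 library left out), and fission, fusion and mitophagy 0 higher and 1 lower of 18 genes (2 and 3 of 18 without iGKO sham 4, 0 to 2 and 0 to 3 with any 1 library left out). Cytosolic ribosomal proteins gave 3 higher and 1 lower of 73 genes (11 and 3 of 73 without iGKO sham 4, 0 to 11 and 0 to 3 with any 1 library left out), proteasome subunits 1 higher and 0 lower of 31 genes (0 and 3 of 31 without iGKO sham 4, 0 to 2 and 0 to 3 with any 1 library left out), cell cycle genes 1 higher and 0 lower of 30 genes (1 and 0 of 30 without iGKO sham 4, 0 to 2 and 0 to 0 with any 1 library left out), genes of regulated cell death 2 higher and 0 lower of 22 genes (4 and 0 of 22 without iGKO sham 4, 2 to 4 and 0 to 0 with any 1 library left out) and nuclear long noncoding RNAs 1 higher and 0 lower of 9 genes (1 and 0 of 10 without iGKO sham 4, 0 to 2 and 0 to 1 with any 1 library left out). The shares among all genes were 3.86% higher and 2.52% lower, or 6.85% and 5.15% without iGKO sham 4. Lists share members, such as Lcn2 and Col1a1, so their counts are not separate evidence.

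Side by side, the list medians in iGKO were nearer to 0 than in fl/fl for injury markers, immediate early genes, neutrophil markers and proximal tubule markers, and farther from 0 for macrophage markers and fibroblast markers, the latter with a negative median in fl/fl. The mitochondrially encoded mRNAs had medians of -0.65 in iGKO and -0.48 in fl/fl, but the iGKO median was -0.42 without iGKO IRI 4 and -0.46 without iGKO sham 2 or iGKO sham 3. No test over these lists was made, and the interaction of single genes did not pass. At an unadjusted p under 0.05, 15 of 31 injury markers and 18 of 23 immediate early genes had a negative interaction (background 6.51%), and 10 of 32 proximal tubule markers a positive one (background 4.8%). There were 1 positive and 1 negative of 20 macrophage markers, 6 and 0 of 17 fibroblast and mural cell markers, and 0 and 0 of 13 mitochondrially encoded mRNAs.

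**Figure D5:**
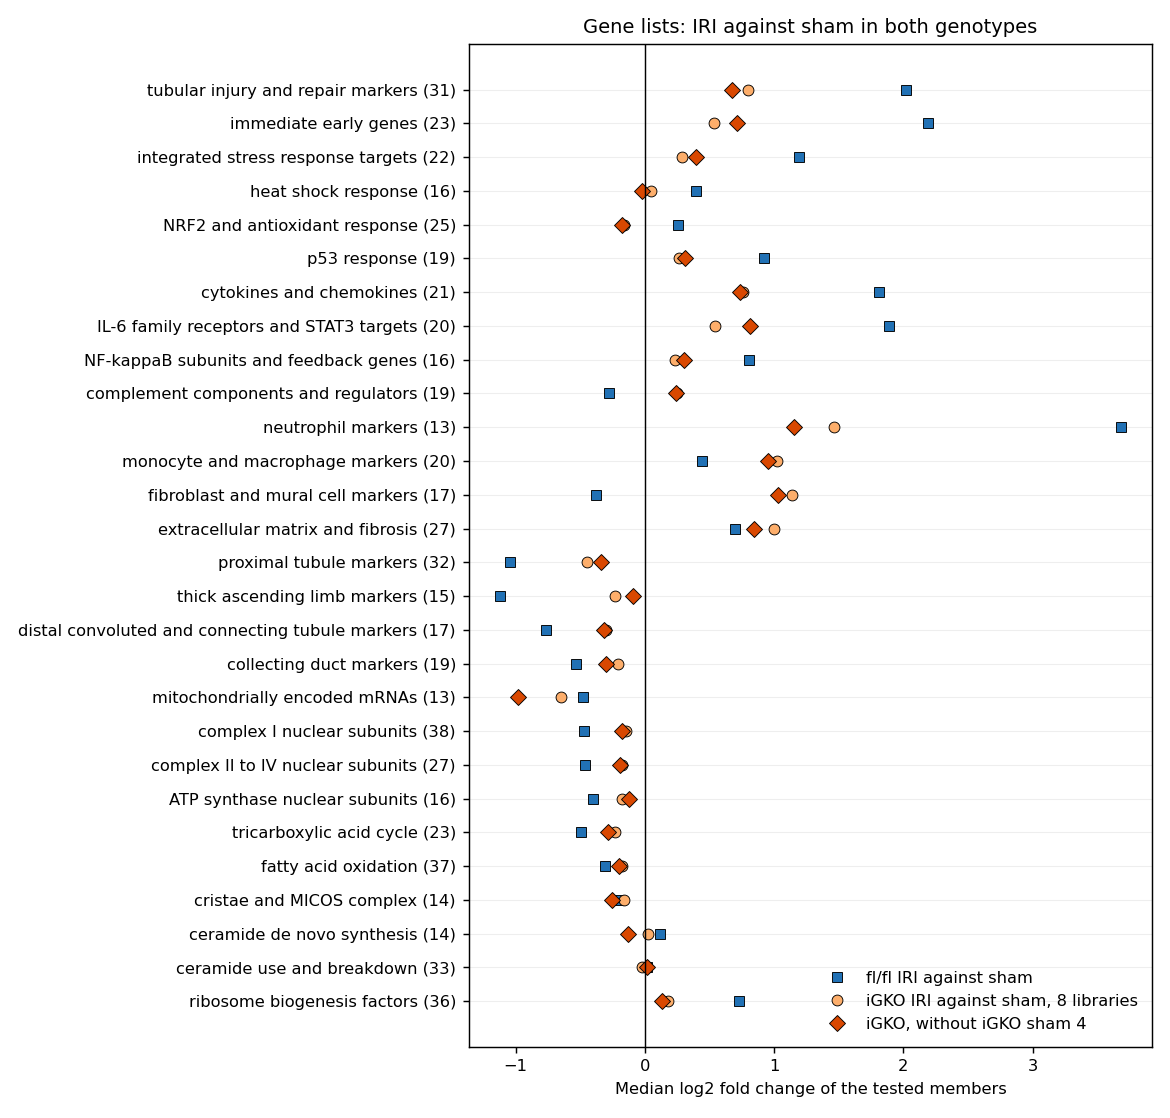
Median log2 fold change, IRI against sham, of the tested members of 28 gene lists (number tested in brackets) in fl/fl, in iGKO with all 8 libraries and in iGKO without iGKO sham 4. The injury list lies at 2.02 in fl/fl and at 0.80 and 0.68 in iGKO, and the mitochondrially encoded mRNAs move from -0.65 to -0.98 without iGKO sham 4.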

How the data were processed

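Whole-number counts of reads per Ensembl gene (56980 genes, 16 libraries) were deposited by the authors. Per the submitters' processing notes, cutadapt 1.16, STAR 2.7.9a, featureCounts 1.6.3 and DESeq2 1.36.0 were used with GRCm39; their settings are not given in the sources used here. Symbols were available for 52073 identifiers, and 0 columns were left out.

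The counts were analysed with edgeR 4.0.16 in R 4.3.3: filterByExpr, TMM scaling, 1 coefficient per group over all 16 libraries, quasi-likelihood F-tests and Benjamini-Hochberg adjustment at 0.05, tested on simulated data. The fit was repeated without iGKO sham 4 (15 libraries). CPM values are TMM-scaled. DESeq2 1.42.0, limma 3.58.1 voom, other scaling, filters, a replicate block and the omission of each library were alternatives. Pairs of replicates differed by more than counting noise, which does not show that each library is 1 animal. Each library was counted as 1 sample. Library totals in all groups were 12704273 to 18816343 counts; 3 reads were taken as the floor.

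The comparison, the 50 gene lists (1154 genes, 1113 tested) and the motifs were chosen with earlier results of these data known. Named genes were 21 set injury, transport, mitochondrial and ceramide genes and up to 4 members of smallest p per list; since none was called, genes of smallest p, genes called by DESeq2 and library-specific genes were added after their values were seen. Some genes that the rule names are not reported here. Single values were compared by exact permutation.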

Additional observations from a re-analysis of the deposited data

Results flagged for a closer look

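In groups of 4, a library whose gap to its nearest neighbour exceeds Dixon's 95% limit of the group's range was picked out. For independent, normally distributed values chance does so for about 1 in 20 groups. Of 264 sets of 4 values looked at, 28 held such a library. The sets included related genes and genes chosen after their values were seen, such as Plin1 and Upk1a. The 28 can therefore not be measured against the chance rate. Levels are in CPM.

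iGKO sham 2 was the highest of its group for Havcr1 (126), Krt20 (34.4) and Egr2 (2.35). iGKO sham 3 was the highest of its group for Slc12a1 (602) and Nfil3 (8.16). iGKO IRI 3 was the highest of its group for Cdkn1a (36.9), Lrg1 (96.0), Ucp1 (284), Krt5 (19.6), Hk2 (111), Plin1 (176), Upk1a (19.3) and the summed markers of adrenal gland, fat, muscle and urothelium (1100.2). iGKO sham 2 was the lowest of its group for Btk (1.36). iGKO sham 4 was the highest of its group for Zfp648 (3.37) and Col1a1 (649). iGKO sham 4 was the lowest of its group for Kif21a (126), mt-Nd5 (1156), Ndufa10 (148), Ndufa6 (61.1) and the mitochondrially encoded share (0.443%). iGKO IRI 2 was the highest of its group for Vim (362), Col3a1 (3604), Col1a1 (3598) and Mmp2 (142). iGKO sham 3 was the lowest of its group for Nlrp3 (1.01). iGKO IRI 4 was the highest of its group for Ggt1 (801). iGKO IRI 1 was the lowest of its group for the total count (12704273). The gene-level interaction passed the adjusted edgeR test for no gene, so no difference between the genotypes was picked out.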

How the results depend on the processing

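At this depth Il6 had too few reads to be tested. The edgeR count of 0 genes for IRI against sham in iGKO stayed 0 in both directions with the replicate block, DESeq2 size factors, mitochondrial genes left out, the iGKO libraries alone, and without iGKO sham 4 and iGKO IRI 3 together, an alternative chosen after seeing the data. Leaving out 1 library gave 0 to 1 genes higher (Abcc3 without iGKO IRI 4), with a smallest adjusted p of 0.0453 to 0.873. Without a filter 4 genes were higher (Abcc3, Tnc, Igdcc4 and Capg). DESeq2 gave 38 higher and 5 lower and limma voom 274 and 276; without iGKO sham 4, 85 and 59 by DESeq2 and 474 and 493 by limma voom. For the interaction, leaving out 1 library gave 0 to 381 positive and 0 to 395 negative calls, both highest without fl/fl IRI 1. The replicate block gave 1 positive call, DESeq2 31 positive and 81 negative, limma voom 544 and 619, and no filter 15 negative. Whether replicate numbers pair the samples cannot be settled from these values. Same-numbered deviations in iGKO correlated at 0.20, -0.02, 0.00 and 0.40, and differently numbered ones at -0.38 to 0.26. The largest value joined sham 4 and IRI 4, which had the lowest mitochondrially encoded shares of their groups (0.443% and 2.05%). The Degs1 difference, at the smallest p of 4 against 4, stayed negative at -48.7 to -37.7 CPM after sham and -66.0 to -51.3 CPM after IRI when 1 library was left out, where p cannot fall below 0.0571. The mitochondrially encoded share differed by -2.87 to -0.869 percentage points when 1 library was left out, and by -0.963 for the mRNAs alone. Among 124 named genes and 2967 combinations of gene and setting, 11 log2 fold changes changed sign. Degs1 was -0.07 and ran -0.18 to 0.063 with 1 library left out, the sign changing without iGKO sham 1 or iGKO sham 3 or iGKO IRI 3. Krt20 was -0.33 and ran -0.70 to 2.07 with 1 library left out, the sign changing without iGKO sham 2, and 0.37 with the replicate block, and 1.05 in limma voom with sample quality weights. Umod was 0.04 and ran -0.15 to 0.25 with 1 library left out, the sign changing without iGKO sham 1 or iGKO IRI 4. Degs2 was -0.13 and ran -0.32 to 0.017 with 1 library left out, the sign changing without iGKO IRI 3, and 0.081 without iGKO sham 4 and iGKO IRI 3 together. Mmp2 was 2.38 and ran -0.016 to 2.75 with 1 library left out, the sign changing without iGKO IRI 2. The cause was not tested. A further 89 values passed the threshold in an alternative only.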
